A study of Mus musculus with 12 samples.

Results

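The 8 genes described here encode the receptors and partner proteins through which myeloid cells of the mouse brain sense microbial products: Tlr2, Tlr3, Tlr4 and Tlr7, their co-receptors Cd14 and Ly96, the adaptor Myd88 and the accessory protein Ly86. They were chosen by symbol from the 31053 genes listed in the files, and every one of the 8 was found once and passed the filter on low counts, as did 9883 genes in all. Single cells were sequenced from the brains of 12 male C57BL/6J mice at postnatal day 90, 1 mouse to a library, after sorting of live cells that were positive for both CD45 and CD11b. The mice fell into 4 groups of 3, which differed in the way the brain was taken apart. DNC-NONE brains were broken up mechanically in a cold Dounce homogenizer, and DNC-INHIB brains were treated in the same way with inhibitors of transcription and translation (actinomycin D, triptolide and anisomycin) present. ENZ-NONE brains were digested with enzymes at 37 °C, and ENZ-INHIB brains were digested with the inhibitors present. No group carried a transgene or received an immune stimulus, so the groups measure handling after death and not a response to microbes. The sort admits every CD45+/CD11b+ cell, so border macrophages and blood-derived cells are present beside microglia. Libraries were made in 2 batches. Each group without inhibitors had 2 libraries in batch 1 and 1 in batch 2, and each group with them had 1 and 2. Contrasts of inhibitors are therefore partly contrasts of batch.

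The libraries held 28426 cells and between 2118143 and 3654465 unique molecular identifiers (UMIs, each standing for 1 captured RNA molecule) each. After filtering, 18827 cells remained, 854 to 2185 per library, with library medians of 1153 to 1572 UMIs per cell. Of the barcode strings of kept cells, 236 occurred in more than 1 library. The 8 microglial markers summed to between 31658 and 36305 UMIs on the usual per-million scale (CPM) per library, and all 8 were detected. Neutrophil markers ranged from 206 to 2286 CPM, lymphocyte markers from 47.6 to 72.5 CPM and markers of non-myeloid brain cells from 158 to 261 CPM. The ENZ-NONE replicate 6 library stood apart: 57.2% of its cells carried UMIs of 4 or more of 19 activation genes (the study's scoring list for all brain cell types, drawn from its separate experiment on unsorted cells), against 27.8% to 28.8% in the other 2 ENZ-NONE libraries and 0.538% to 9.14% in the remaining 9. Several results that rest on it are also given without it, and the text says where the main results in border macrophage-like cells are not.

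Toll-like receptors are membrane proteins that bind molecular patterns shared by many microbes. TLR4 recognizes bacterial lipopolysaccharide only as a complex with MD-2, the product of Ly96, and CD14 hands lipopolysaccharide to that complex. TLR2 binds bacterial lipopeptides at the cell surface, while TLR3 and TLR7 bind double-stranded and single-stranded RNA inside endosomes. Nearly all of these receptors signal through MyD88 to NF-kappaB, with TLR3 as the exception that uses another adaptor. MD-1, the product of Ly86, pairs with the receptor homologue RP105, which is encoded by Cd180. Microglia express this system at rest. The comparison asks whether taking the tissue apart changes its expression.

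The promoters of 4 of the 8 genes (Tlr2, Tlr3, Myd88 and Ly86) matched an entry in the RefSeq promoter windows of GRCm38.p6, which run from 250 bases before to 50 bases after a transcription start. They were searched on both strands for the kappaB motif, the interferon-stimulated response element, AP-1 (TGANTCA) and PU.1 (GAGGAA), which are the motifs of factors at the end of the pathway or of the myeloid lineage. The 3 windows with a match are printed 5′ to 3′ on the strand of the gene, with the matching bases in capitals. They lie at chr3:83841559-83841858 for Tlr2, chr8:45410331-45410630 for Tlr3 and chr9:119339969-119340268 for Myd88, all on the minus strand.
Tlr2: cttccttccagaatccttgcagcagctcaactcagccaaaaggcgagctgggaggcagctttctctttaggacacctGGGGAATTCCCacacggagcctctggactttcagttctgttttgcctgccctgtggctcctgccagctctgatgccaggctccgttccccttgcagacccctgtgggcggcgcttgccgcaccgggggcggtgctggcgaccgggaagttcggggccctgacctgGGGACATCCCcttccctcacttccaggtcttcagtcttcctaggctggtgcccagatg
Tlr3: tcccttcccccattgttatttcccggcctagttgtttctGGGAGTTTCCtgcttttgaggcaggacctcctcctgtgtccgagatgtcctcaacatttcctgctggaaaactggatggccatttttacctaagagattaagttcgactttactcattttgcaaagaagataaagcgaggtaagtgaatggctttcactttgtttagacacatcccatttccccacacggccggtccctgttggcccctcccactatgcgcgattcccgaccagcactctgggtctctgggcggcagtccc
Myd88: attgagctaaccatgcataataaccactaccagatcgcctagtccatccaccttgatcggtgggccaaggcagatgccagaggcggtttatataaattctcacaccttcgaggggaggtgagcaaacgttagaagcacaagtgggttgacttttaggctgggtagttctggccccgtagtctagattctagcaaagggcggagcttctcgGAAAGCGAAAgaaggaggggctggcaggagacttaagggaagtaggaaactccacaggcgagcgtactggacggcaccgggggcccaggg
With the start base counted as 0, Tlr2 held a pair of overlapping kappaB matches from -173 to -164 and from -172 to -163 and another from -8 to 1. Tlr3 held a kappaB match from -211 to -202, and Myd88 an interferon-stimulated response element from -40 to -31. The window of Ly86 held none of the 4 motifs. Among all 32851 windows, 8.46% held the kappaB motif, 3.44% the interferon-stimulated response element, 7.81% AP-1 and 28.3% PU.1. The matches describe letters in these windows and were not tested as binding sites.

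On GRCm38, the annotated genes of the members lie at 3:83836272-83841767 for Tlr2, 8:45395665-45411080 for Tlr3, 4:66827584-66930284 for Tlr4, X:167304929-167330558 for Tlr7, 1:16688051-16709611 for Ly96, 9:119335934-119341411 for Myd88 and 13:37345208-37419036 for Ly86. Myd88 overlaps Slc22a14 on the same strand and Acaa1a on the other strand, and Tlr3 overlaps Gm45542 on the other strand. Counts of Myd88 in particular could be affected by the overlap, which was not tested. The other members overlap no annotated gene.

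None of the 8 genes was called different between preparations in library totals. Across 9 contrasts (the 6 pairs of groups, digestion, inhibitors and their interaction), none of the 72 differences passed edgeR's quasi-likelihood test at a Benjamini-Hochberg adjusted p under 0.05 with a log2 fold change over 0.58, and DESeq2 called none either. Only 3 of the 72 had an unadjusted p under 0.05, in edgeR and in DESeq2 alike, and all 3 were for Cd14. As background, the same rule called 0.870% of all genes for digestion (ENZ minus DNC), 0.0708% for inhibitors (INHIB minus NONE) and 0.0607% for the interaction. Between pairs it called 0.476% for ENZ-NONE against DNC-NONE, 0.293% for ENZ-NONE against ENZ-INHIB, 0.739% for ENZ-NONE against DNC-INHIB, 0.202% for ENZ-INHIB against DNC-INHIB, 0.172% for ENZ-INHIB against DNC-NONE and 0% for DNC-NONE against DNC-INHIB, where 439 genes had an unadjusted p under 0.05 and DESeq2 called 1. At these backgrounds, 0 calls among 8 genes does not differ from genes in general. The intervals are more informative. For digestion and for inhibitors, the 95% interval of the log2 fold change lay within 0.58 in either direction for 8 of 8 members, and so it did for 61 of the 72 differences.

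**Figure D1:**
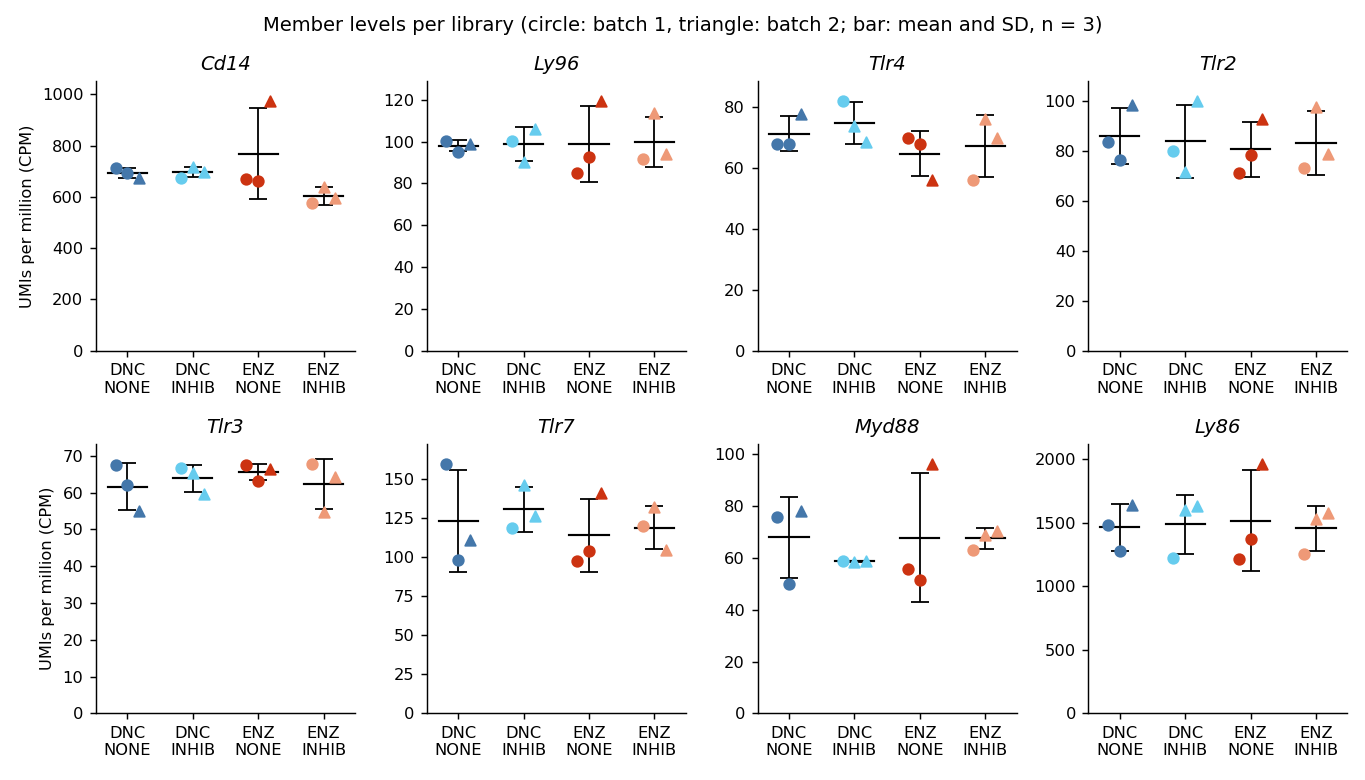
Level of each member in CPM (y axes, each from 0) in the 4 groups (x axis), 1 point per library, circles for batch 1 and triangles for batch 2, with the mean and SD of 3 libraries. No group lies below all others except that the 3 ENZ-INHIB libraries are the lowest for Cd14, and ENZ-NONE replicate 6 is the highest point for Cd14, Ly96, Myd88 and Ly86.

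**Figure D2:**
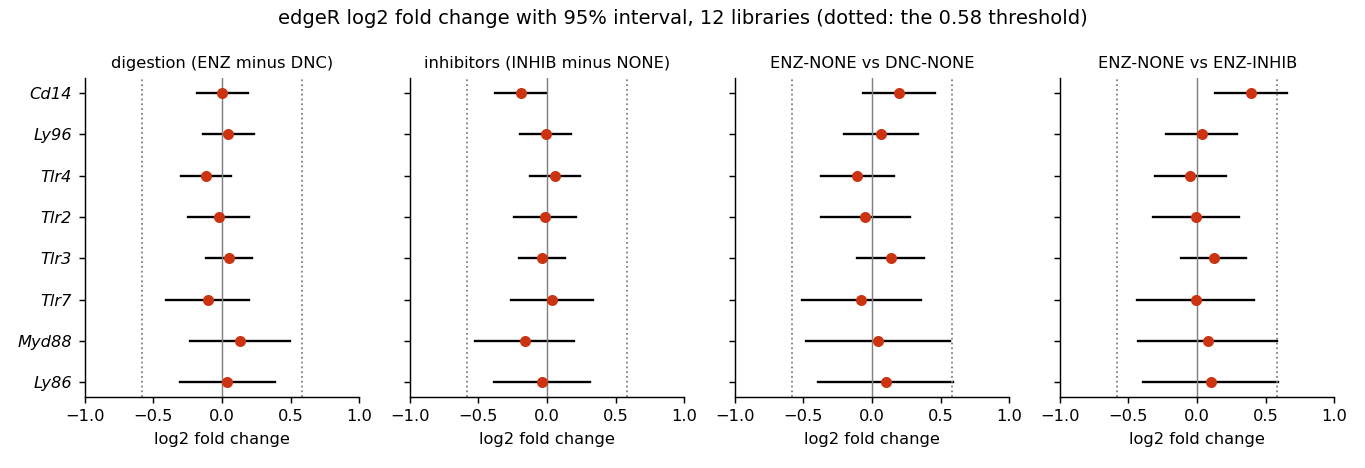
Log2 fold change (x axes) of each member (y axes) with its 95% interval from edgeR over 12 libraries, 1 panel for each of 4 of the 9 contrasts, with dotted lines at the 0.58 threshold. The points lie close to 0 in all panels, and the largest is Cd14 at 0.39.

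Cd14, the co-receptor that delivers lipopolysaccharide to TLR4, was the member that moved most. It was measured at 714, 694 and 675 CPM in the DNC-NONE libraries and at 675, 716 and 696 CPM in those of DNC-INHIB, then at 671, 660 and 974 CPM in ENZ-NONE and at 574, 640 and 595 CPM in ENZ-INHIB. The 3 ENZ-INHIB libraries were lower than the other 9, which among the 8 members held for Cd14 alone and among all genes tested for 0.557%. In ENZ-NONE, replicate 6 was the highest of the 12 and the other 2 libraries lay just under the range of the 6 DNC libraries. The group means were 694 ± 19.3 CPM in DNC-NONE, 696 ± 20.1 in DNC-INHIB, 768 ± 178 in ENZ-NONE and 603 ± 33.6 in ENZ-INHIB (SD, n = 3 each).

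The edgeR log2 fold change of Cd14 was 0.39 (SE 0.12, 95% interval 0.13 to 0.65) for ENZ-NONE against ENZ-INHIB, with an unadjusted p of 0.0056 and an adjusted p of 0.57. For inhibitors it was -0.19 (SE 0.088, edgeR unadjusted p = 0.042, adjusted p = 0.75), and for the interaction 0.39 (SE 0.18, edgeR unadjusted p = 0.037, adjusted p = 1.0). An unadjusted p under 0.05 was reached by 4.93%, 6.57% and 3.27% of all genes in these 3 contrasts. Without ENZ-NONE replicate 6, the Cd14 log2 fold change for ENZ-NONE against ENZ-INHIB was 0.15 (edgeR adjusted p = 0.97). Within batch 1 the log2 ratio of ENZ-NONE to ENZ-INHIB means was 0.21, and within batch 2, which holds replicate 6, it was 0.66. Relative to DNC-NONE, the ratio was -0.08 in batch 1 and 0.53 in batch 2.

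Ly96, which encodes the lipopolysaccharide-binding subunit of the TLR4 complex, ranged from 84.9 to 119 CPM with overlapping groups. Its log2 fold change was 0.04 for digestion and -0.01 for inhibitors. Tlr4, the signalling chain of that complex, ranged from 56.0 to 81.8 CPM. Both its lowest values were in enzymatically digested brains, ENZ-NONE replicate 6 and ENZ-INHIB replicate 1, and its log2 fold change was -0.12 for digestion and 0.06 for inhibitors. Each of these differences was smaller than the spread between libraries. In cells thinned to 1000 UMIs, 0.179% to 1.17% of cells per library held UMIs of both Tlr4 and Ly96, which was above the product of the separate shares in 5 of 12 libraries. All of Tlr4, Ly96 and Cd14 were seen together in 52 of 18827 cells, so at this depth the complete receptor could rarely be observed within 1 cell.

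Tlr2, the surface receptor for lipopeptides, ranged from 71.2 to 99.9 CPM, with the lowest value in ENZ-NONE and the highest in DNC-INHIB. Its log2 fold change was -0.03 for digestion and -0.02 for inhibitors. The endosomal RNA receptors differed as little. Tlr3 ranged from 54.7 to 67.9 CPM, the narrowest spread of the 8 (coefficient of variation 7.39% over 12 libraries, against 8.77% from counting alone), with log2 fold changes of 0.05 for digestion and -0.04 for inhibitors. Tlr7 ranged from 97.3 to 160 CPM, both ends coming from groups without inhibitors, with log2 fold changes of -0.11 and 0.04.

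Myd88, the adaptor shared by most Toll-like receptors, had the widest relative spread (coefficient of variation 20.3%, against 8.62% from counting alone). It was measured at 75.6, 49.9 and 78.3 CPM in the DNC-NONE mice, 59.0, 58.5 and 58.8 CPM in the DNC-INHIB mice, 55.6, 51.5 and 96.3 CPM in the ENZ-NONE mice and 63.0, 69.0 and 70.5 CPM in the ENZ-INHIB mice. The 2 groups without inhibitors each spanned the values of the groups with them. The 3 DNC-INHIB libraries lay below the 3 ENZ-INHIB libraries (log2 fold change 0.21 for ENZ-INHIB against DNC-INHIB, SE 0.23, edgeR adjusted p = 0.87). How many of all genes tested kept these groups apart was not counted. The log2 fold change of Myd88 was 0.13 for digestion and -0.16 for inhibitors, both uncalled.

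Ly86, the MD-1 gene, differed between batches more than between preparations. The 6 libraries of batch 1 lay between 1215 and 1478 CPM and the 6 of batch 2 between 1531 and 1963 CPM, a ratio of means of 1.27. No other member separated by batch in this way, and 2.09% of all genes did. The group means of Ly86, 1463 ± 183 CPM in DNC-NONE, 1485 ± 229 in DNC-INHIB, 1515 ± 395 in ENZ-NONE and 1454 ± 176 in ENZ-INHIB (SD, n = 3 each), differed by less than this spread.

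The share of cells with at least 1 UMI of a gene was compared after every cell was thinned to 1000 UMIs, since deeper cells show more genes. The median share over the 12 libraries was 74.6% for Ly86, 46.4% for Cd14, 11.2% for Tlr7, 9.24% for Ly96, 7.33% for Tlr2, 6.77% for Tlr4, 6.24% for Tlr3 and 5.83% for Myd88. A low share limits what a cell can be said to lack, since a transcript of this abundance is missed in most cells at this depth. For Cd14, the shares were 46.8%, 47.4% and 46.9% for the DNC-NONE mice, 45.9%, 49.0% and 47.4% for DNC-INHIB, 46.1%, 44.4% and 52.5% for ENZ-NONE and 41.9%, 44.1% and 43.9% for ENZ-INHIB. As in the totals, the 3 ENZ-INHIB libraries were the lowest, though the highest of them, at 44.1%, lay close to the 44.4% of ENZ-NONE replicate 5. How many of all genes separate in this way by share was not counted.

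None of the 8 shares differed at an exact permutation p under 0.05 for digestion, for inhibitors or for ENZ-NONE against the other 9 libraries (two-sided, over animals), while 11.0%, 6.27% and 6.50% of all genes did; after adjustment over all genes, none of any kind passed. Tlr4 came nearest for digestion, at -0.80 percentage points (exact permutation p = 0.065). The Cd14 share changed by -1.74 points with digestion (exact permutation p = 0.295) and by -1.98 points with inhibitors (exact permutation p = 0.235). Without ENZ-NONE replicate 6, the Cd14 difference for digestion was -3.15 points (exact permutation p = 0.01), so that library decides whether this difference is seen. How many of all genes pass without that library was not counted.

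Cells were next divided by the same 19 activation genes. In the 4 libraries with at least 50 cells on each side, cells with 4 or more of the genes were compared with the rest. Cd14 was 705 CPM in the activated cells and 657 in the others in ENZ-NONE replicate 4, 803 and 604 in replicate 5, 1167 and 707 in replicate 6, and 745 and 710 in DNC-NONE replicate 1. It was thus higher in activated cells in 4 of 4 libraries, by a ratio of 1.05 to 1.65, with the smallest ratios in DNC-NONE replicate 1 and ENZ-NONE replicate 4. Of the other members, Ly86, Myd88 and Tlr2 were higher in 3 of 4 libraries, Ly96, Tlr3 and Tlr7 in 2 of 4 and Tlr4 in 1 of 4. The list is a cut on a continuous count: in ENZ-NONE replicate 6, 235 cells had exactly 3 of the genes and 213 exactly 4.

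**Figure D3:**
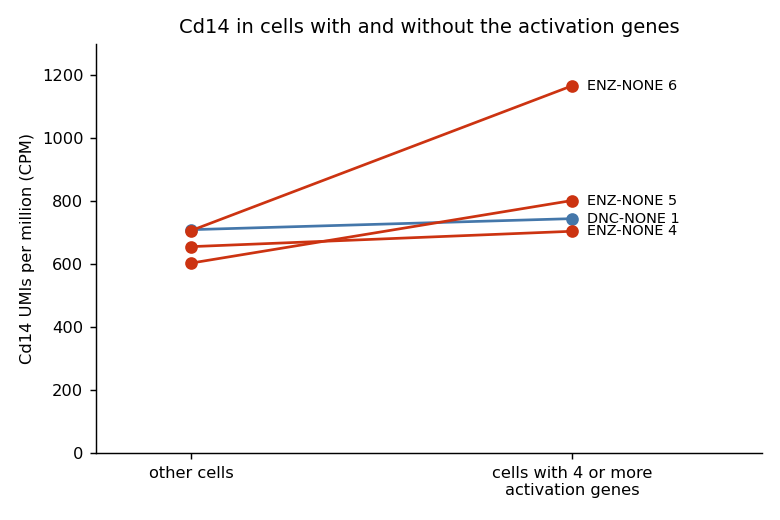
Cd14 level in CPM (y axis, from 0) in cells with 4 or more of the 19 activation genes and in the other cells (x axis), with a line for each of the 4 libraries that had at least 50 cells of both kinds. Every line rises toward the activated cells, most in ENZ-NONE replicate 6, from 707 to 1167.

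Clusters made without the members, the pathway lists and the activation lists gave 17985 microglia-like cells, 310 interferon-responsive-like cells, 308 border macrophage-like cells, 194 monocyte-like cells and 30 proliferating-like cells. The border macrophage-like class was led by Pf4, Ms4a7, H2-Eb1, H2-Aa, Cd74, H2-Ab1 and Mrc1, and the monocyte-like class by Chil3, Plac8 and Cd209a. Summed dendritic and neutrophil markers were also raised in the monocyte-like cells (log2 fold 6.90 and 5.92 against all other cells). Monocyte markers stood at 7.75 there, and the class may hold more than monocytes. The microglia-like cells included a cluster of 1018 led by Adamts1, Fos and Egr1, with 726 from ENZ-NONE replicate 6. Border macrophages line the meninges and vessels of the brain. The members were spread unevenly over these classes, which is given as a description since clusters and levels come from the same cells. Ly86 was lower in border macrophage-like than in microglia-like cells in 12 of 12 libraries (781 against 1541 CPM pooled) and lower in monocyte-like cells in 8 of 8 libraries with at least 10 such cells (382 CPM). Tlr3 followed the same order, at 64.2 CPM in microglia-like, 15.5 in border macrophage-like and 4.77 in monocyte-like cells, and was higher in interferon-responsive-like cells (123 CPM) in 10 of 12 libraries. Its endosomal neighbour Tlr7 was lower in border macrophage-like cells in 10 of 12 libraries (81.2 against 126 CPM).

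Tlr4 was lower in monocyte-like cells in 8 of 8 libraries (21.5 against 69.4 CPM) and much the same in border macrophage-like cells (75.4 CPM). Tlr2 was higher in border macrophage-like cells in 9 of 12 libraries (145 against 83.5 CPM), and Myd88 in monocyte-like cells in 6 of 8 (157 against 65.7 CPM). Ly96 showed no order that held across libraries, at 101, 106 and 73.9 CPM in microglia-like, border macrophage-like and monocyte-like cells. Cd14 was higher in border macrophage-like than in microglia-like cells in 5 of 12 libraries and lower in 7, and lower in monocyte-like cells in 8 of 8. It was seen in 7.16% of monocyte-like cells after thinning (median depth 2039 UMIs), the lowest share of any class, and in 47.1% of microglia-like cells (median depth 1333 UMIs). The sorted cells held no class that should lack Cd14, so the level from free RNA was not measured.

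**Figure D4:**
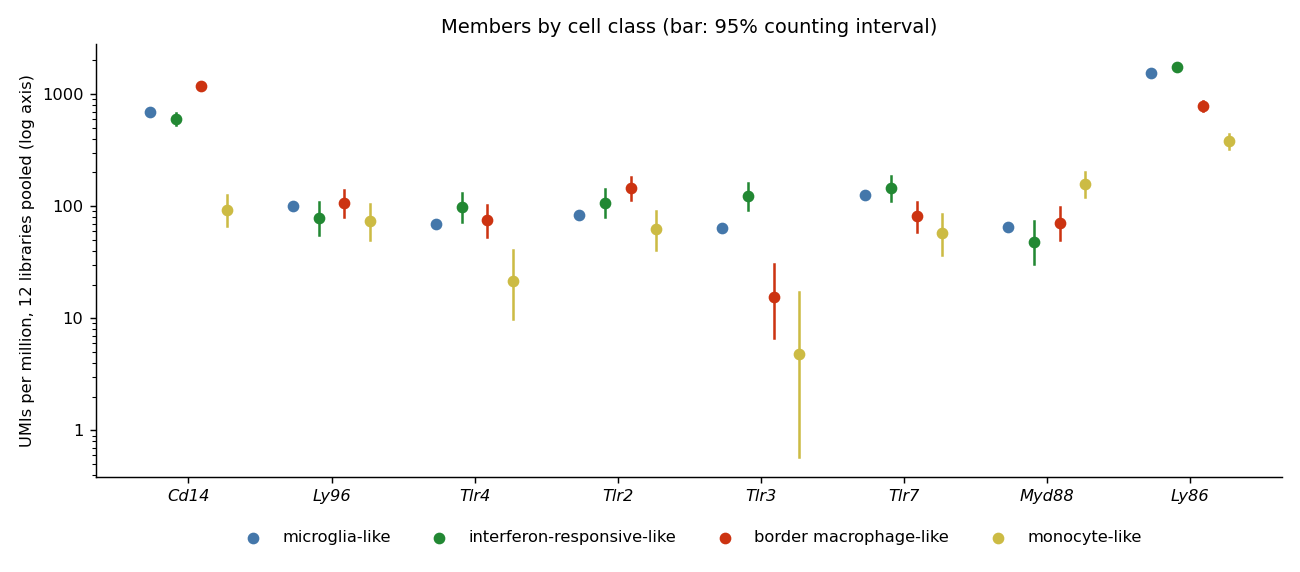
Level of each member (x axis) in CPM on a log axis (y axis) in 4 cell classes, pooled over 12 libraries, with 95% counting intervals. Tlr3 and Ly86 fall from microglia-like to border macrophage-like to monocyte-like cells, while the pooled Cd14 value is highest in border macrophage-like cells at 1183, although it is above the microglia-like level in 5 of 12 libraries and below it in 7, and lowest in monocyte-like cells.

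Within the border macrophage-like cells, Cd14 differed between preparations far more than in the whole libraries. This comparison was added after the levels by class had been seen, and the interferon-responsive-like class was fitted in the same way. Cd14 was measured at 1554, 2194 and 3526 CPM in ENZ-NONE, 751, 571 and 506 CPM in the ENZ-INHIB mice, 501, 599 and 590 CPM in DNC-INHIB and 1981, 692 and 545 CPM in DNC-NONE. The ENZ-NONE libraries were the highest but for DNC-NONE replicate 1, which lay between them. The numbers behind these values are small: 13 to 42 border macrophage-like cells per library, with 292 Cd14 UMIs over 65 cells in ENZ-NONE and 62 UMIs over 65 cells in ENZ-INHIB. In DNC-NONE replicate 1, a single cell held 57 of the 108 UMIs, and without that cell the level was 965 CPM. With the cell of most Cd14 UMIs taken out of every library in the same way, the ENZ-NONE libraries stood at 1330, 1402 and 3103 CPM and the other 9 between 424 and 965 CPM. The cells taken out were picked by their Cd14 counts. How many genes of the class would separate after such a trim was not counted.

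**Figure D5:**
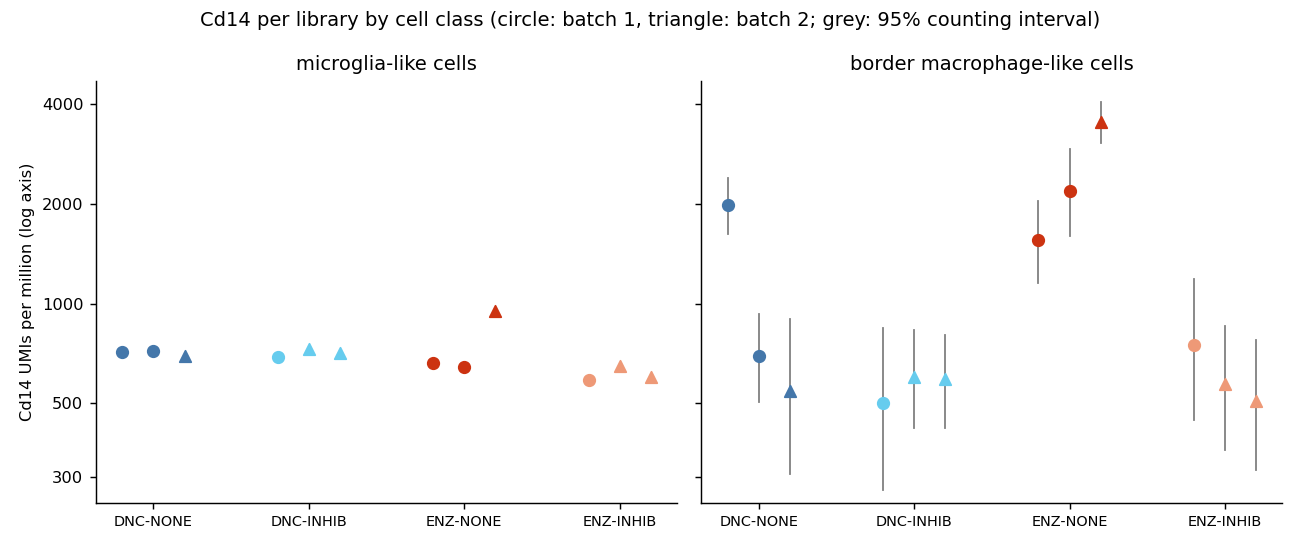
Cd14 in CPM (log axis) per library in the 4 groups (x axes), 1 panel per cell class, with circles for batch 1, triangles for batch 2 and grey 95% counting intervals. In border macrophage-like cells the ENZ-NONE libraries lie between 1554 and 3526 and the others between 501 and 751, apart from 1981 in DNC-NONE replicate 1. In microglia-like cells the libraries lie between 586 and 729, apart from 948 in ENZ-NONE replicate 6.

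Only Cd14 and Ly86 of the 8 members had enough counts for the edgeR fit on these cells, which tested 698 genes. The Cd14 log2 fold change was 2.08 for ENZ-NONE against ENZ-INHIB (SE 0.42, 95% interval 1.18 to 2.97, edgeR adjusted p = 0.0082), where 2.44% of genes were called. Against DNC-INHIB it was 2.14 (SE 0.41, edgeR adjusted p = 0.0039; 2.58% of genes called). For inhibitors it was -1.55 (SE 0.30, edgeR adjusted p = 0.012; 1.29% called). Against DNC-NONE it was 1.12 (SE 0.38) and did not pass (edgeR adjusted p = 0.21; 2.58% called), and without DNC-NONE replicate 1 it was 2.00 (edgeR adjusted p = 0.000195). Digestion gave 0.60 (edgeR adjusted p = 0.34, 0.430% called) and the interaction 1.06 (edgeR adjusted p = 0.78, 1.15% called). Without DNC-NONE replicate 1 both were called, digestion at 1.06 (edgeR adjusted p = 0.015) and the interaction at 1.90 (edgeR adjusted p = 0.025), so these 2 results depend on that library. The 3 pairs without ENZ-NONE called 0% of genes, in edgeR and in DESeq2; 25, 69 and 89 genes had an edgeR unadjusted p under 0.05 when DNC-INHIB was set against DNC-NONE, when it was set against ENZ-INHIB and when DNC-NONE was set against ENZ-INHIB. Ly86 passed in none of the 9 contrasts in these cells, with log2 fold changes from -0.11 to 0.29.

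The calls on this small class depend on single libraries. For ENZ-NONE against ENZ-INHIB, the Cd14 log2 fold change stayed between 1.60 and 2.26 when each library was left out in turn, but the call was lost without DNC-INHIB replicate 4, ENZ-NONE replicate 5, ENZ-NONE replicate 6 or any 1 of the 3 ENZ-INHIB libraries (edgeR adjusted p up to 0.19). Against DNC-INHIB it was lost without DNC-INHIB replicate 4, ENZ-NONE replicate 6 or ENZ-INHIB replicate 1 (log2 fold change 1.71 to 2.12, edgeR adjusted p up to 0.078). For inhibitors it was lost without any 1 library of DNC-INHIB or ENZ-INHIB and without ENZ-NONE replicate 5 or 6 (log2 fold change -1.60 to -1.31, edgeR adjusted p up to 0.19).

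A share of cells is less affected by single cells of many UMIs than a sum is. The thinned share of border macrophage-like cells with a Cd14 UMI was 59.0%, 65.0% and 80.2% in ENZ-NONE, and 35.7% to 54.9% in the other 9 libraries, so the groups did not overlap, as was so for 2.44% of the 698 genes in this class. The difference in means was 24.4 percentage points (68.1% against 43.7%, exact permutation p = 0.0091, the smallest that 220 arrangements allow). An exact p under 0.05 was reached by 7.74% of the genes, and adjusted over all of them the p of Cd14 was 0.32, so the share did not pass across genes, nor did that of any other gene. It was 13.5 points within batch 1 and 40.4 points within batch 2 (exact permutation p = 0.022 within batches). For digestion the share differed by 14.5 points (exact permutation p = 0.02; 9.74% of genes under 0.05) and for inhibitors by -13.4 points (exact permutation p = 0.025; 4.44% of genes under 0.05), neither of which passed across genes (adjusted p = 0.41 and 0.89). Within batches, the exact permutation p was 0.014 for digestion and 0.074 for inhibitors. The difference for inhibitors was -4.79 points in batch 1 and -20.6 points in batch 2. Within each library, the log2 ratio of Cd14 in border macrophage-like to microglia-like cells averaged 1.64 in ENZ-NONE and -0.00063 in the other 9 (exact permutation p = 0.018, adjusted p = 0.03 over 6 tests of Cd14 in this class). Within batches its exact permutation p was 0.044. How many other genes reach such a p for this ratio was not counted. This ratio rests on the same sums of UMIs, and DNC-NONE replicate 1, with its cell of 57 Cd14 UMIs, lay at 1.48, above ENZ-NONE replicate 4 at 1.24. ENZ-NONE replicate 6 was the highest library for the ratio (1.90) and for the share. Neither difference was recomputed without it. In the microglia-like cells alone, Cd14 for ENZ-NONE against ENZ-INHIB was 0.33 on the log2 scale (edgeR adjusted p = 0.83).

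Activation genes moved with Cd14 in this class. Of the border macrophage-like cells, 15 of 21, 7 of 13 and 25 of 31 carried 4 or more of the 19 activation genes in ENZ-NONE replicates 4, 5 and 6, against at most 3 cells in any other library. In those ENZ-NONE libraries the activated cells held 43 of 51, 36 of 45 and 187 of 196 Cd14 UMIs. The remaining cells of the class stood at 923, 1035 and 997 CPM, on 8 or 9 UMIs each. In DNC-NONE replicate 1, 3 of 33 cells were activated and they held 5 of the 108 UMIs. The summed border macrophage markers of the whole library ranged from 45.6 to 126 CPM in ENZ-NONE and from 46.8 to 304 CPM in the other 9, and their part in the result was not tested.

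In the interferon-responsive-like cells, Cd14 was 451, 396 and 399 CPM in ENZ-INHIB and 470 to 916 CPM in the other 9 libraries. The class held 11 to 54 cells per library, and the 470 CPM of DNC-NONE replicate 2 rested on 7 UMIs in 11 cells. How many genes of the class separate in this way was not counted. The Cd14 log2 fold change was 0.74 for ENZ-NONE against ENZ-INHIB (SE 0.29, edgeR adjusted p = 0.47) and -0.96 for ENZ-INHIB against DNC-NONE (SE 0.29, edgeR adjusted p = 0.21), neither called.

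The rest of the pathway was read from 63 further genes in 7 lists, of which 48 were tested. No receptor, chaperone, adaptor, kinase, end transcription factor or other pathogen sensor of these lists was called in any contrast: 0 of 5 tested receptors, 0 of 3 chaperones, 0 of 15 adaptors and kinases, 0 of 6 transcription factors and 0 of 6 other sensors. Cd180, whose product pairs with the Ly86 product, ranged from 115 to 170 CPM, and Unc93b1, which carries the endosomal receptors to their compartment, from 1366 to 1545 CPM. Ifnb1 was not detected in any library.

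The calls lay among negative regulators and response genes, where 1 of 8 and 1 of 5 tested genes were called higher and none lower. In the contrasts concerned, the same rule called 0.293% to 0.870% of all genes. A gene not called is not thereby unchanged. For ENZ-NONE against DNC-INHIB, 4 of 5 response genes had an edgeR unadjusted p under 0.05 (median log2 fold change of the 5, 3.12). Against ENZ-INHIB it was 3 of 5 (2.68). Of the negative regulators, 3 of 8 had such a p against DNC-INHIB (median 0.22). Nfkbid, a nuclear regulator of NF-kappaB, was 23.4, 16.9 and 42.1 CPM in ENZ-NONE and 3.77 to 11.3 CPM in the other 9 libraries. Its log2 fold change was 1.90 against DNC-NONE (SE 0.33, edgeR adjusted p = 0.0054), 1.57 against ENZ-INHIB (SE 0.30, edgeR adjusted p = 0.019), 2.10 against DNC-INHIB (SE 0.31, edgeR adjusted p = 0.00087) and 1.22 for digestion (SE 0.25, edgeR adjusted p = 0.012). The Nfkbid call against ENZ-INHIB was lost in 5 of 22 alternatives, namely without ENZ-NONE replicate 6 (log2 fold change 1.06), without any 1 ENZ-INHIB library (1.47 to 1.63) and with library sums thinned to 1000 UMIs per cell (1.29), with edgeR adjusted p up to 0.25. That for digestion was lost without ENZ-INHIB replicate 3 (edgeR adjusted p = 0.055).

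Ccl3, a chemokine induced by Toll-like receptor signalling, was 207, 234 and 553 CPM in ENZ-NONE and 9.80 to 44.0 CPM in the other 9 libraries. Its log2 fold change was 3.17 against DNC-NONE (SE 0.49, edgeR adjusted p = 0.038), 4.17 against ENZ-INHIB (SE 0.52, edgeR adjusted p = 0.019) and 3.78 against DNC-INHIB (SE 0.49, edgeR adjusted p = 0.010). It remained between 2.52 and 4.56 under every alternative, but its call against DNC-NONE was lost in 11 of 22 alternatives, including each fit without 1 library of DNC-NONE, DNC-INHIB or ENZ-INHIB, and its other 2 calls were lost without any 1 library of the group compared. The call of Ccl3 against DNC-INHIB was also lost with the replicate block (3.70, edgeR adjusted p = 0.21) and in a fit of the 6 libraries of the pair without it (3.77, edgeR adjusted p = 0.15). Ccl3 and Nfkbid are both in the list of myeloid activation genes that the study chose on these samples, so their rise is not independent evidence. How many of all genes tested had every ENZ-NONE library above the other 9 was not counted.

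The genes whose levels followed Cd14 most closely over the 12 libraries were Creld2 (Pearson r = 0.92), Klf4 (0.88) and Hspa5 (0.87), by correlation of log2(CPM + 1). Without ENZ-NONE replicate 6, the highest library for all of them, the values were 0.79, 0.59 and 0.77. The libraries share batches and groups, so the correlations are a description.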

How the data were processed

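UMI counts per gene and cell were deposited by the authors as 10x matrices (3′ version 2 chemistry), made per the submitters' processing notes with bcl2fastq and Cell Ranger 3.0.0 on mm10 (GRCm38). Counting reads only RNA 3′ ends, so levels are given as counts on the per-million scale (CPM) without scaling by length. Cells were kept with at least 500 genes, 1000 UMIs and at most 10% mitochondrial UMIs. A marker rule for doublets removed 3 cells (0.0159%), too few to have worked, so doublets remain.

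Counts were summed per library and tested with edgeR 4.0.16 (R 4.3.3; TMM, filterByExpr, quasi-likelihood with a robust spread estimate), all 12 libraries in 1 fit, with Benjamini-Hochberg adjustment over 9883 genes. DESeq2 1.42.0 was an alternative. Shares were the expected share of cells with a UMI after thinning to 1000 UMIs, tested by exact permutation over animals. Intervals on counts are exact Poisson at 95% and cover counting error only. Cells were clustered with Leiden on genes outside the member, pathway and activation lists, and classes were named from fixed markers. The members and lists were chosen with earlier results of these data known, and the fits within border macrophage-like and interferon-responsive-like cells were added after class levels were seen. Every member was named, as was each other pathway gene called in at least 1 contrast. For Cd14, the 3 genes with the highest correlation over libraries were named too. Other genes' levels were given as description, chosen after they were seen. The edgeR script was tested on simulated counts. Coordinates are from the GRCm38 annotation, and promoter windows from RefSeq; Tlr4, Tlr7 and Ly96 had no window, and no position or sequence of Cd14 is given.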

Additional observations from a re-analysis of the deposited data

Results flagged for a closer look

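As measured, the Cd14 difference between ENZ-NONE and the other libraries was larger in border macrophage-like than in microglia-like cells by 1.64 on the log2 scale (exact permutation p = 0.018 over 220 arrangements of 12 animals, adjusted p = 0.03 over 6 tests of Cd14 in this class). Permuted within batches, the exact p was 0.044. The adjustment covers Cd14 in this class alone, and how many other genes reach such a p for this ratio was not counted. The groups overlapped: the log2 ratio of the 2 classes was 1.24 in ENZ-NONE replicate 4 and 1.48 in DNC-NONE replicate 1, where 1 cell held 57 of 108 Cd14 UMIs. The share of border macrophage-like cells with a Cd14 UMI did not pass after adjustment over the 698 genes of this class (adjusted p = 0.32). Within batch 1 the difference was 1.17 and within batch 2 it was 2.16. ENZ-NONE replicate 6 had the highest ratio (1.90), and the difference was not recomputed without that library. The class held 13 to 42 cells per library, and the comparison was made after the levels by class had been seen.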

How the results depend on the processing

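No member was called under any alternative on whole libraries, and 207 of 1652 alternative values changed sign without being called. For ENZ-NONE against ENZ-INHIB, the Cd14 log2 fold change ran from 0.15 to 0.50 over 22 alternatives, with an edgeR or DESeq2 adjusted p from 0.0058 (no low-count filter, where the fold change stayed under the threshold) to 1.0. In border macrophage-like cells only, 1 member (Cd14) was called in ENZ-NONE against ENZ-INHIB, 1 in ENZ-NONE against DNC-INHIB and 1 for inhibitors. When each library was left out, Cd14 in those cells ran from 1.60 to 2.26, from 1.71 to 2.38 and from -1.66 to -1.10 in these contrasts, with 6, 9 and 4 of 12 fits called, and against DNC-NONE from 0.69 to 2.00, with 1 of 12 called. The contrast against DNC-NONE was also called without the low-count filter (1.12, edgeR adjusted p = 0.0458). Without DNC-NONE replicate 1, digestion (1.06) and the interaction (1.90) were called too. In shares, 1 member passed an exact permutation p of 0.05 for digestion under thinning to 2000 UMIs (Ly86) and 1 under the looser cell filter (Tlr4); leaving out libraries gave 0 to 1 (Cd14 or Tlr4). For inhibitors 1 passed under the looser cell filter (Cd14), and for ENZ-NONE against the others 1 under thinning to 2000 UMIs (Ly86) and 1 under the looser filter (Tlr4), with 0 to 1 when libraries were left out (Ly96 or Tlr4). Ly86 reversed under thinning to 2000 UMIs, to 11.3 points for digestion and 9.53 points for ENZ-NONE against the others, on 33 to 224 cells per library; the cause was not tested. Counts over all genes moved more: 7 for inhibitors became 4 to 38, 6 for the interaction 4 to 18, 86 for digestion 54 to 162, 29 for ENZ-NONE against ENZ-INHIB 14 to 54, 73 against DNC-INHIB 45 to 140, 47 against DNC-NONE 29 to 99, 20 for ENZ-INHIB against DNC-INHIB 5 to 66, 17 against DNC-NONE 1 to 103, and 0 for DNC-NONE against DNC-INHIB up to 18; the highest value came without the low-count filter, except for the interaction, where it came without the robust spread estimate. With the replicate block, 0 members were called in both pairs that share numbers, and Cd14 in border macrophage-like cells was 2.11 against DNC-INHIB (edgeR adjusted p = 0.000117). The numbers do not pair the samples (correlations of same-numbered libraries from -0.08 to 0.16). For Tlr3, Tlr4 and Myd88, the counting error alone was 8.38% to 8.77% per library. That is a lower bound on the error, and larger differences could also be missed. The coefficient of variation over libraries was 7.39% for Tlr3, 11.1% for Tlr4 and 20.3% for Myd88. For ENZ-NONE against DNC-INHIB, the SE of the edgeR log2 fold change was 0.11, 0.12 and 0.23 for these genes. The smallest difference that could be called was not computed.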

Other observations

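Among Toll-like receptors outside the members, Tlr13, which recognizes bacterial ribosomal RNA, ranged from 82.2 to 121 CPM over the 12 libraries and Tlr1, a partner of TLR2, from 11.7 to 21.6 CPM. Tlr8 was at 0 in 10 of 12 libraries and Tlr9, a DNA receptor, in 4 of 12. Of the cytosolic sensing genes, Tmem173, which encodes the STING adaptor, ranged from 308 to 412 CPM and Nlrp3, an inflammasome sensor, from 37.6 to 56.5 CPM. Irf5, a transcription factor downstream of MyD88, ranged from 277 to 343 CPM. These genes were chosen for mention after their levels were seen.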
